A study of Mus musculus with 6 samples.

Results

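Type I interferon-stimulated genes were followed in the colon of Adamts4 knockout (KO) and wild-type (WT) mice. The list held 33 genes chosen by symbol, of which 32 had a row in a table of 21899 genes and Mx2 was not analysed here. All 32 passed the filter on low counts, so they were tested among 14553 genes. Colon tissue was taken from 3 KO and 3 WT libraries, and every animal of both genotypes had received 2.5% dextran sodium sulfate (DSS), a polysaccharide that injures the colonic epithelium, for 7 days. Untreated animals were not analysed here. The sources used here name no knockout allele, strain, sex or age, so a difference in strain background and the loss of the protease cannot be told apart. ADAMTS4 is an extracellular protease of aggrecan and related matrix proteoglycans.

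Type I interferons are secreted when cells sense foreign or misplaced nucleic acid. They bind the receptor IFNAR1-IFNAR2, and the kinases JAK1 and TYK2 then activate ISGF3, a factor that holds STAT2 and IRF9. ISGF3 binds the interferon-stimulated response element (ISRE) near the start of its target genes, whose products sense viral RNA, block translation, degrade RNA or tag proteins with ISG15. The gut keeps a basal level of these genes in the presence of its microbes, and its epithelium answers type III interferon through the same factor.

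The ISRE core was looked for in RefSeq promoter windows (GRCm38.p6) of 300 bases, 250 before the annotated start and the rest after it. The motif, 2 copies of GAAA with any 2 bases (NN) between them, searched on both strands, was in the windows of 12 of the 23 listed genes with an entry (52.2%), against 3.99% of all 27025 genes in the table. The 12 were Isg15, Ifit1, Ifit3, Ifit3b, Oas1a, Oas3, Rsad2, Stat2, Bst2, Trim30a, Ifih1 and Eif2ak2. For comparison, TTCNNNGAA, the core of the gamma-activated sequence and a motif that may overlap the first, was in 6 of the 23 (26.1%) and in 9.55% of all genes. The windows below, upstream of the start, show the element in members of different roles, 5′ to 3′ on the gene's own strand, with every base of a match to the ISRE core (or to its reverse complement) in capitals.
Isg15: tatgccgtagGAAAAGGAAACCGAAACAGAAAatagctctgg
Ifit1: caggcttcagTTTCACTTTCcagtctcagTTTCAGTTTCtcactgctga
Ifit3: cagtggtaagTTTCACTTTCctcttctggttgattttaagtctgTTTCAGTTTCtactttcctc
Oas1a: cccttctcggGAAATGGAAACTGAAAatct
Rsad2: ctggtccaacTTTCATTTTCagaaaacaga
Stat2: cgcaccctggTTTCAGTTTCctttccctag
Bst2: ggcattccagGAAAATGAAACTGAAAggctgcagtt

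The Isg15 window (chr4:156200865-156200906, minus strand) held 3 overlapping cores, and the Ifit1 window (chr19:34640775-34640823, plus strand) held 2. The stretch printed for Ifit3 (chr19:34583363-34583426, plus strand) was identical over its 64 bases to that of Ifit3b, a neighbouring copy, at chr19:34607759-34607822. The Oas1a cores (chr5:120907526-120907555, minus strand) ended 5 bases before the start, and the Rsad2 (chr12:26456553-26456582, minus strand), Stat2 (chr10:128270266-128270295, plus strand) and Bst2 (chr8:71537577-71537612, minus strand) cores lay further upstream. In Ifih1 and Eif2ak2 the match lay after the start, and in Trim30a before one of its annotated starts and after another. A match is a description of these letters and not of a factor bound there.

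**Figure D1:**
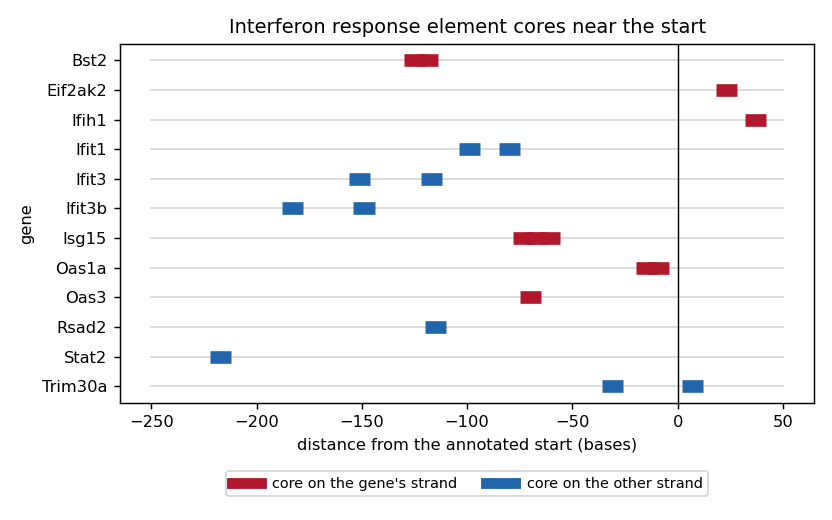
Positions of ISRE core matches (bars) on a line for each of the 12 genes that held one, with the distance in bases from the annotated start on the x axis and the colour giving the strand. Isg15 held 3 cores in a row, and the cores of Ifih1 and Eif2ak2 lay after the start.

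Total counts per library ran from 15786214 to 22932125, and Adamts4, the deleted gene, was at 0 counts throughout KO and at 900 to 997 in WT. The first principal component (43.7% of the variance) set KO 3 apart, with a score of 63.8 against -43.1 to 22.4 in the other 5. All 8 listed markers of colonic epithelium were expressed and tested. Whether each library was 1 animal is not stated, so the spread behind every p-value may be technical. The tissue is bulk, so fewer cells of a type and less RNA per cell cannot be told apart. Levels below are counts per 1000000 after TMM scaling of library sizes (CPM), fold changes are log2 of KO over WT with an approximate standard error (SE), and adjusted p-values are those of edgeR's quasi-likelihood test over all genes tested unless another tool is named.

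No interferon-stimulated gene passed the edgeR test between the genotypes. All 32 had log2 fold changes above 0, where 54.2% of all genes tested lay, and the median was 0.58 (range 0.08 for Irf9 to 1.06 for Mx1) against 0.03 for all genes. The list was chosen with earlier results of these data known, so the shares of all genes given here describe the list and do not test it. None was called lower (background 0.151%) or higher (background 0.00687%), the smallest adjusted p being 0.208 for Trim30a. At an unadjusted p below 0.05, 12 of the 32 were higher in KO, against 5.17% of all genes, and none was lower, against 7.85%. In 11 genes the 3 KO values all lay above the 3 WT values (background 9.35%), and in none did they lie below (background 10.2%). A gene separated in this way has a two-sided p of 0.1 by an exact permutation test, and 3 against 3 libraries can give no smaller one. DESeq2 called 1 listed gene, Ifit1, higher (adjusted p = 0.0386), against 0.804% of all genes higher and 2.96% lower. The authors' deposited table gives the same gene alone a false discovery rate below 0.05 (0.0430), against 0.457% of its genes higher and 1.93% lower. Limma-voom called no listed gene (background 0.0137% higher, 0.186% lower).

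For most of these genes, as for most of all genes tested, the range within WT exceeded the difference between the genotype means. WT 3 had the lowest of the 6 values in 30 of 32 genes (16.48% of all genes tested had their lowest value there), and KO 1 had the highest in 23 (17.6% of all genes). Within WT the highest value was 1.03 to 5.31 times the lowest (median 1.98), and within KO it was 1.19 to 2.88 times (median 1.63). For 26 of the 32 genes the difference between the genotype means was smaller than the range within WT on the log2 scale, which also held for 70.6% of all genes tested. Summed over the 32 genes, the level was 4202, 2913 and 3304 CPM in KO 1, KO 2 and KO 3, and 2733, 3141 and 1646 CPM in WT 1, WT 2 and WT 3. The WT 2 sum thus lay between those of KO 2 and KO 3, and WT 3 was below the other 5.

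**Figure D2:**
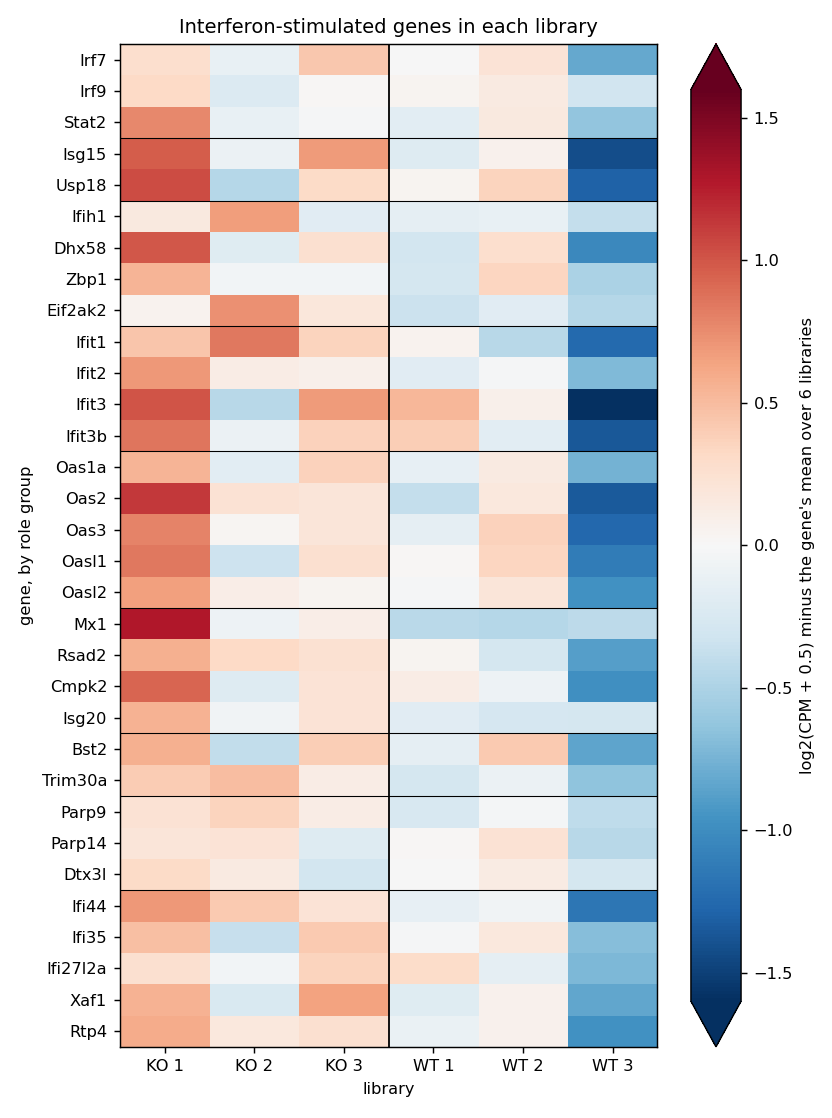
Heat map of the 32 tested genes (rows, by role group) in the 6 libraries (columns); colour is log2(CPM + 0.5) minus the gene's mean over the libraries. The WT 3 column is the lowest in 30 rows and the KO 1 column the highest in 23.

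The size of the median rested on these libraries. Without WT 3 it was 0.33 (30 of 32 genes above 0, against 53.3% of all genes), without KO 1 it was also 0.33 (30 of 32, against 53.2%), and leaving out any other library gave 0.61 to 0.74. With WT 3 left out, 6 genes had an unadjusted p below 0.05, all higher in KO (background 3.69% higher, 5.77% lower), and with KO 1 left out 4 did (background 6.91% higher, 10.1% lower). None was called in any of these fits. The median without KO 3, the library that stood apart, was 0.61. The number of genes without overlap was 18 without KO 2 (background 16.5%) and 17 without WT 2 (background 13.5%), where fewer values had to separate, and 7 on the log2(TPM + 1) scale (background 6.79%).

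**Figure D3:**
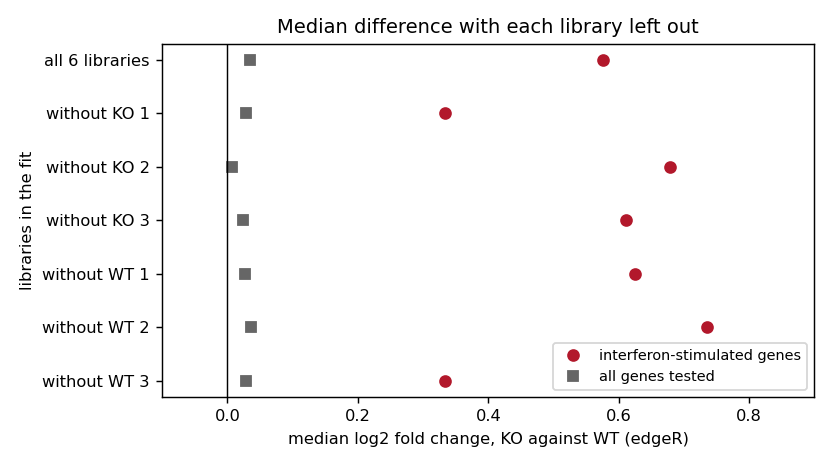
Median log2 fold change (x axis) of the 32 interferon-stimulated genes (circles) and of all genes tested (squares) with all 6 libraries and with each left out in turn (rows). The circles move from 0.58 to 0.33 without KO 1 or WT 3, and the squares stay within 0.04 of 0.

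The 3 factors that carry the signal overlapped between the genotypes. Irf7, which amplifies interferon transcription, had 485, 371 and 543 CPM in the KO libraries and 400.1, 469 and 228 CPM in the WT libraries, in the order 1 to 3 as for every gene below. Its WT 1 and WT 2 values lay among the KO values, and the log2 fold change of 0.35 ± 0.29 (SE; adjusted p = 0.654) had a 95% interval from -0.32 to 1.02. Stat2, a subunit of ISGF3, had 174, 94.2 and 101 CPM in KO and 91.1, 114 and 65.8 CPM in WT (0.45 ± 0.28, adjusted p = 0.541). Only KO 1 stood above the WT range for Stat2. Irf9, the DNA-binding subunit of the same factor, stood at 88.2 ± 16.7 CPM in KO and 83.5 ± 13.1 CPM in WT (SD, n = 3), a log2 fold change of 0.08 with a 95% interval from -0.34 to 0.50.

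ISG15 and its protease also overlapped between the genotypes, with wider spreads. Isg15, the ubiquitin-like protein attached to many targets, had 195, 92.7 and 160.1 CPM in KO and 85.9, 104 and 36.8 CPM in WT. KO 2 lay inside the WT range, and the log2 fold change was 0.98 ± 0.39 (adjusted p = 0.352), with 0.65 to 1.28 when 1 library was left out. Usp18, the protease that removes ISG15 and damps receptor signalling, had 79.2, 27.5 and 47.0 CPM in KO and 39.2, 48.8 and 15.2 CPM in WT. KO 1 was high and WT 3 low for this gene, the other 4 libraries overlapped, and the log2 fold change of 0.57 ± 0.47 became 0.12 in the lowest of the fits without 1 library.

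Among the nucleic acid sensors, Eif2ak2 separated the genotypes and the other 3 did not. Eif2ak2, the kinase PKR that stops translation on binding double-stranded RNA, had 40.8, 65.6 and 44.5 CPM in KO and 30.7, 34.4 and 28.5 CPM in WT (0.69 ± 0.21, adjusted p = 0.229). All KO values were above all WT values, and KO 2 rather than KO 1 was the highest. Ifih1, the RNA helicase MDA5, had 83.7, 119.8 and 66.0 CPM in KO and 68.3, 69.5 and 57.5 CPM in WT (0.46 ± 0.22, adjusted p = 0.413). It shared the high KO 2 value with Eif2ak2, while KO 3 lay inside the WT range. Zbp1, a sensor of Z-form nucleic acid that can start necroptosis, was the most abundant of these sensors by mean CPM, at 139.7 ± 34.7 CPM in KO and 115 ± 36.9 in WT. Its WT 2 value of 157 CPM was above KO 2 and KO 3 (119.8 and 119.5 CPM), with WT 1 and WT 3 at 102 and 87.0 CPM and KO 1 at 179.7 CPM. Dhx58, the MDA5 cofactor LGP2, overlapped too, with a log2 fold change of 0.70 and a 95% interval from -0.18 to 1.57.

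The IFIT genes, whose products bind viral RNA with an incomplete cap, held the only gene called by another tool. Ifit1 had 61.2, 81.0 and 57.8 CPM in KO and 46.6, 32.9 and 18.7 CPM in WT, so that the groups did not overlap. The log2 fold change was 1.02 ± 0.31 (95% interval 0.31 to 1.73, adjusted p = 0.235 in edgeR). It was the gene that DESeq2 and the authors' deposited table gave as higher. Over the 14 alternative fits, DESeq2 included, its adjusted p ran from 0.0386 to 0.480 and its log2 fold change from 0.75 to 1.36.

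Ifit2, of the same family, had 138, 93.1 and 90.6 CPM in KO and 75.0, 84.2 and 52.3 CPM in WT (0.61 ± 0.23, adjusted p = 0.335). KO 2 and KO 3 were close to WT 2, but did not cross it. Ifit3 spread the most of the 32 genes, with 142, 52.0 and 114 CPM in KO and 102, 74.7 and 19.3 CPM in WT, a highest value 7.39 times the lowest. Within WT alone it ranged 5.31-fold, and its 95% interval ran from -0.64 to 1.95. Ifit3b, the near-identical neighbour, followed the same order of libraries within each genotype, at 31.2, 15.8 and 22.0 CPM, and had 22.5, 15.1 and 6.29 CPM in WT. How reads were divided between these copies is not given, so their separate levels are uncertain.

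The listed genes of the oligoadenylate synthetase family, some of whose enzymes make the adenylate chains that activate RNase L, were higher in KO 1 and lower in WT 3 than in the other libraries. Oasl2, an OAS-like member of the family, was the most abundant by mean CPM, with 489, 334 and 321 CPM in KO and 306, 357 and 158 CPM in WT. Here KO 2 and KO 3 lay between WT 1 and WT 2 (0.48 ± 0.32, adjusted p = 0.564). Oas2 had 116, 62.6 and 60.7 CPM in KO and 40.5, 59.5 and 20.7 CPM in WT (0.99 ± 0.39, adjusted p = 0.350). Its groups did not overlap, with KO 3 just above WT 2. Oas1a, which belongs to a cluster of similar Oas1 genes and may share reads with them, had 279, 169 and 246 CPM in KO and 175, 212 and 113 CPM in WT (0.47 ± 0.27, adjusted p = 0.497). KO 2 was below both WT 1 and WT 2 for Oas1a. Oas3 and Oasl1 overlapped between the groups, at log2 fold changes of 0.58 and 0.47.

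Of the 4 antiviral effectors tested, Mx1, Rsad2 and Isg20 were among the 11 genes without overlap (background 9.35%). Mx1, a dynamin-like GTPase that blocks orthomyxoviruses and is defective in many laboratory strains, had 24.4, 9.11 and 10.5 CPM in KO against 7.10, 6.93 and 7.13 CPM in WT. WT 3 was not low for Mx1, and KO 1 was 2.49 times the mean of KO 2 and KO 3. The log2 fold change of 1.06 ± 0.37 (adjusted p = 0.297) was 0.47 in the lowest of the fits without 1 library. Rsad2, or viperin, which makes a nucleotide that ends RNA chains, had 35.1, 29.5 and 28.0 CPM in KO and 24.3, 19.3 and 12.6 CPM in WT (0.72 ± 0.25, adjusted p = 0.290). The 3 KO values were close together and all above WT. Cmpk2, the mitochondrial nucleotide kinase encoded next to Rsad2, was the most abundant of these effectors by mean CPM, with 75.1, 33.8 and 45.5 CPM in KO and 42.6, 36.9 and 19.5 CPM in WT. Unlike its neighbour it overlapped, because KO 2 was below WT 1 and WT 2. Isg20, an RNA exonuclease, averaged 25.1 ± 5.49 CPM in KO and 17.5 ± 0.670 in WT, without overlap (0.52 ± 0.19, adjusted p = 0.329).

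**Figure D4:**
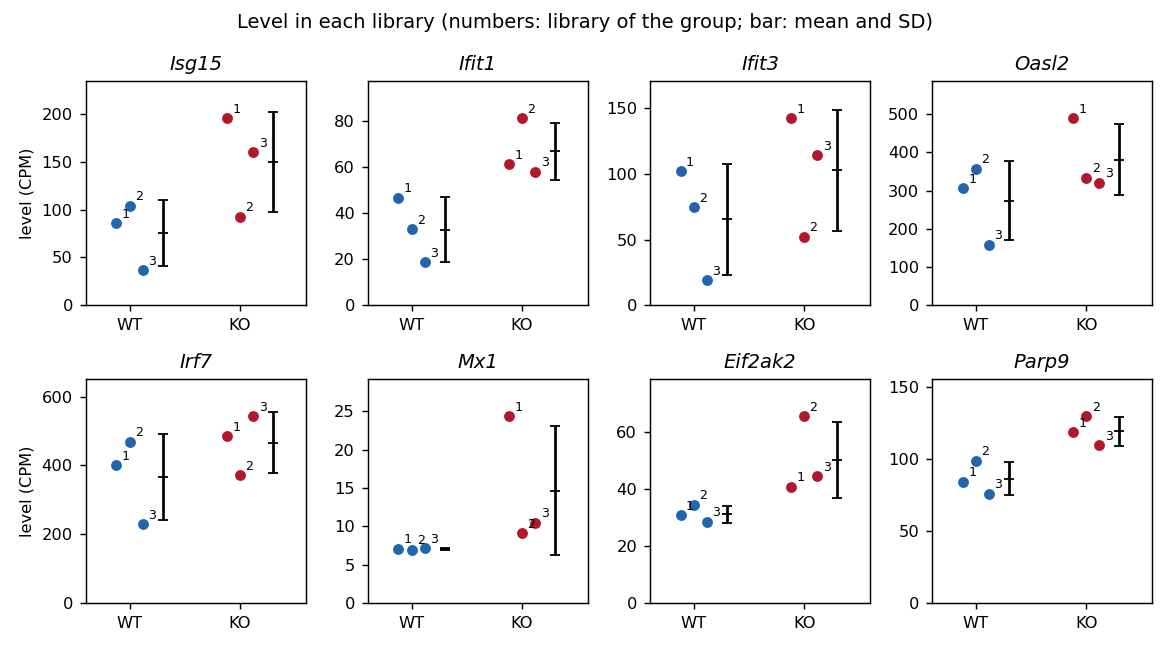
Level in CPM (y axis, from 0) of 8 genes in each library, WT in blue and KO in red, with the library number beside each point and the mean and SD (n = 3) as a bar. The Ifit1, Mx1, Eif2ak2 and Parp9 panels show no overlap of the groups, and the Isg15, Ifit3, Oasl2 and Irf7 panels do.

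Trim30a had the smallest p of the list. This TRIM family protein had 47.0, 49.9 and 38.6 CPM in KO and 28.9, 33.3 and 22.5 CPM in WT (0.68 ± 0.19, 95% interval 0.24 to 1.12, adjusted p = 0.208). Its groups did not overlap, and with 1 library left out the log2 fold change stayed between 0.54 and 0.81. Bst2, or tetherin, which holds budding virions at the cell surface, had 83.1, 42.6 and 73.7 CPM in KO and 50.8, 75.2 and 30.9 CPM in WT. WT 2 exceeded KO 2 and KO 3, and the log2 fold change of 0.35 ± 0.34 (adjusted p = 0.715) had a 95% interval from -0.45 to 1.14.

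PARP9 and DTX3L act as a complex that modifies ubiquitin, and their genes lie head to head. Parp9 had the smallest SE of the list, with 118, 129.6 and 109 CPM in KO and 84.2, 98.6 and 75.8 CPM in WT (0.47 ± 0.15, adjusted p = 0.251). The groups did not overlap for Parp9. Dtx3l, at 155, 139 and 102 CPM in KO and 125, 138 and 103 CPM in WT, did overlap and was lowest in KO 3 (0.12 ± 0.19, adjusted p = 0.834). Parp14, an ADP-ribosyltransferase of the same region, had 175, 177 and 133 CPM in KO and 154, 179 and 112 CPM in WT (0.12 ± 0.21, adjusted p = 0.839). The sign of the Dtx3l change turned without KO 1 (-0.02), that of Parp14 without WT 3 (-0.04), and that of Irf9 without KO 1 (-0.07) or WT 3 (-0.04). Exons of Parp9 and Dtx3l overlap on opposite strands in GENCODE M21, as do those of Irf7 and Phrf1, and Irf9 overlaps Rnf31 on the same strand. Whether counting used strand is not given, so reads may be exchanged within these pairs.

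Of the other induced genes, Ifi44 and Rtp4 separated the genotypes. Ifi44, which restrains viral replication, had 48.6, 40.1 and 34.9 CPM in KO and 27.2, 28.8 and 13.1 CPM in WT (0.84 ± 0.29, adjusted p = 0.298). Rtp4, a receptor transporter protein induced by interferon, had 92.9, 69.1 and 73.6 CPM in KO and 57.0, 64.5 and 31.2 CPM in WT (0.63 ± 0.26, adjusted p = 0.375). For both genes WT 3 was well below WT 1 and WT 2. Ifi27l2a, a small mitochondrial protein gene with close copies nearby, had 106, 85.9 and 114 CPM in KO and 108, 80.2 and 53.3 CPM in WT. It overlapped (0.34 ± 0.25, adjusted p = 0.610), as did Xaf1 and Ifi35, at log2 fold changes of 0.65 and 0.36. On the authors' length-scaled TPM values, averaged over 6 libraries, Irf7 (382 TPM), Ifi27l2a (354 TPM), Isg15 (286 TPM) and Oasl2 (241 TPM) were the highest of the list and Rsad2 (11.8 TPM) and Mx1 (7.76 TPM) the lowest.

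**Figure D5:**
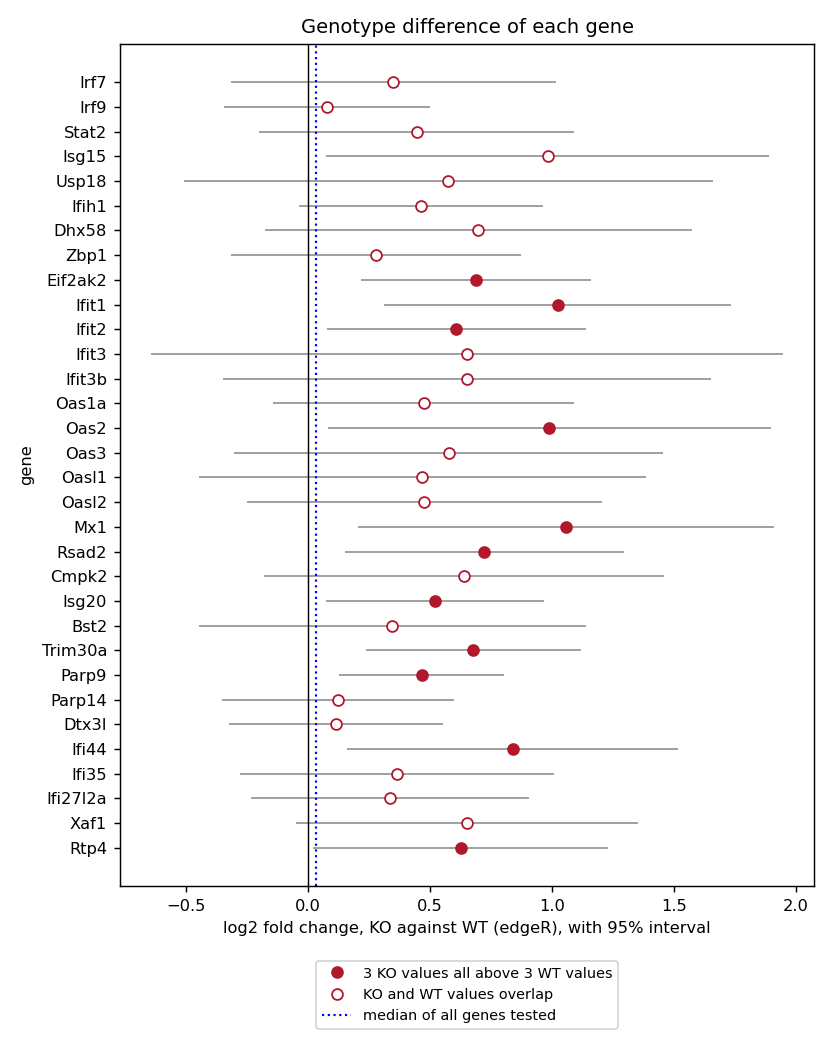
Log2 fold change of KO over WT from edgeR with its 95% interval (x axis) for each of the 32 genes (rows, by role). Filled circles mark the 11 genes whose KO values all lay above the WT values and the dotted line the median of all genes tested; all circles lie to the right of 0, and 20 of the 32 intervals include 0.

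The genes did not all order the KO libraries alike. In KO 1 the level was the highest of the 3 KO libraries for 23 genes (36.2% of all genes tested). It was highest in KO 2 for Eif2ak2, Ifih1, Ifit1, Parp9, Parp14 and Trim30a, and in KO 3 for Irf7, Ifi27l2a and Xaf1. KO 2 was at the same time the lowest KO library for 19 genes, such as Isg15, Usp18, Ifit3 and Bst2. In WT the order was more uniform, with WT 3 lowest for 31 genes (35.2% of all genes tested) and WT 2 highest for 24. For the other orders the share of all genes was not taken. Mx1 was the exception to the low WT 3 value.

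The fold changes were also set beside the promoter windows printed above. The 12 with the core had a median log2 fold change of 0.65 (range 0.35 to 1.02), the 11 with none had 0.48 (0.08 to 0.84), and the 9 with no promoter entry had 0.57 (0.12 to 1.06). The KO values lay above the WT values in 4, 3 and 4 genes of these sets (9.35% of all genes), and the difference between the sets was not tested.

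Interferon transcripts themselves were at the limit of detection. Ifnb1, Ifna1, Ifna2, Ifna4 and Ifnk had no count in any library, and the 10 interferon genes listed together had 13 counts in KO and 3 in WT. Most of these were in KO 1, where the type III genes Ifnl2 and Ifnl3 had 5 and 3 counts and no other library had any. None of the 10 passed the filter, so none was tested.

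Receptors, kinases and regulators of the pathway were tested beside the induced genes. Of 9 tested, 3 lay above 0 and 6 below (median log2 fold change -0.14), where 54.2% of all genes tested lay above 0. None of the 9 was called by edgeR or DESeq2. Ifnar2, the signal-anchoring receptor chain, had 25.4, 17 and 17.1 CPM in KO and 28.8, 28.9 and 32.2 CPM in WT (-0.59 ± 0.20, adjusted p = 0.283). Every KO value was below every WT value for this gene, which held for 10.2% of all genes tested. The partner chain Ifnar1 stood at 54.2 ± 2.63 CPM in KO and 60.6 ± 4.0 in WT (-0.16 ± 0.13, adjusted p = 0.628), also without overlap. Tyk2, the receptor-bound kinase, had a log2 fold change of -0.24 ± 0.19 (adjusted p = 0.645).

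Upstream, among 13 tested sensors, adaptors and factors that lead to interferon production, 7 lay above 0 and 6 below. Over all genes tested 54.2% lay above 0, and edgeR called none of the 13. Sting1, the adaptor for cytosolic DNA, had 24.3, 19.2 and 17.8 CPM in KO and 26.4, 40.4 and 42.0 CPM in WT, without overlap (-0.83 ± 0.23, adjusted p = 0.20). DESeq2 called Sting1 lower (adjusted p = 0.0320) and no other gene of this list, against 2.96% of all genes lower and 0.804% higher. Tlr3, the endosomal receptor for double-stranded RNA, stood at 0.41 ± 0.18 (adjusted p = 0.386) and Irf5, a factor downstream of Toll-like receptors, at -0.32 ± 0.19 (adjusted p = 0.522). These genes did not overlap either, Tlr3 being higher in KO (background 9.35%) and Irf5, like Sting1, lower (background 10.2%).

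A further 24 tested interferon-stimulated genes outside the list had 18 log2 fold changes above 0 and 6 below, with a median of 0.26. Over all genes tested 54.2% lay above 0. No gene of this list passed in edgeR. Ifitm1, a membrane protein that hinders viral entry, was lower in KO, with 39.0, 27.1 and 16.5 CPM against 126, 74.2 and 80.4 CPM in WT (-1.76 ± 0.33, adjusted p = 0.0848). DESeq2 called Ifitm1 lower (adjusted p = 1.45e-05) and no other gene of this list, against 2.96% of all genes lower and 0.804% higher. Epsti1 (0.44 ± 0.12, adjusted p = 0.207) and the Schlafen gene Slfn8 (0.79 ± 0.24, adjusted p = 0.241) were higher in each KO library than in any WT library (background 9.35%). In this list too WT 3 had the lowest summed level, 2089 CPM, and KO 1 the highest, 3794 CPM.

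Summed levels of several cell type marker lists also lay apart between the genotypes, and their part in the levels above was not tested. The summed level of 8 epithelial markers was 23995 to 30934 CPM in KO and 16805 to 21804 CPM in WT. KO 1 was highest through the goblet cell mucin Muc2 alone, which had 22797 CPM there and 9170 to 14264 CPM in the other libraries. Without Muc2 the other 7 summed to 8138, 9731 and 16970.5 CPM in KO 1, KO 2 and KO 3 and to 10536, 8745 and 7635 CPM in WT 1, WT 2 and WT 3, so that KO 3 was highest, KO 1 was below WT 1 and WT 2, and WT 3 was lowest. A large part of the KO 3 sum was Car1 alone, which had 8524 CPM there and 1282 to 3585 CPM in the other libraries. The 7 neutrophil markers summed to 9.98 to 37.1 CPM in KO and 86.9 to 189 CPM in WT, and all 7 had log2 fold changes below 0. DESeq2 called 5 of them lower (2.96% of all genes) and edgeR none (0.151%), and Ngp was at 0 counts in KO 2 and KO 3. The 8 macrophage and monocyte markers summed to 127 to 427 CPM in KO and 340.0 to 579 CPM in WT, with all 8 below 0 and none called. The 6 endothelial markers summed to 102 to 236 CPM in KO and 354 to 402 CPM in WT, and edgeR called 1 of them, Ly6c1, lower (0.151% of all genes). The 6 fibroblast markers summed to 602 to 4005 and 2072 to 4430 CPM in the same order, the 7 B and plasma cell markers to 749 to 994 and 1105 to 1943 CPM, and the 6 tested T and NK cell markers to 31.4 to 47.2 and 40.1 to 73.9 CPM. DESeq2 called 2 endothelial, 2 B and plasma cell and 1 T and NK cell marker lower (2.96% of all genes), and no fibroblast marker. Of the plasmacytoid dendritic cell markers, a cell type known for interferon secretion, Siglech had 0 to 13 counts and Cox6a2 0 to 6 counts per library. Neither these nor Ccr9 passed the filter, so they could not be compared. The 3 of 6 tested were Klk1 (880 to 1793 CPM), Tcf4 and Spib, with none called, and whether their transcripts came from this cell type was not tested. Mitochondrially encoded genes took 4.03% to 9.50% of the counts, the most in KO 3.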

How the data were processed

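Counts per gene were used as the authors deposited them, and the deposited TPM served for levels between genes and for 1 alternative. Per the file headers the table also holds the authors' log2 fold change, p-value and false discovery rate for the genotype comparison. Per the submitters' processing notes the builds GRCm38, mm10 and mm39 were involved. The aligner, counter and test behind them were not given in the sources used here. Per the labels' protocols, total RNA was extracted with Trizol and made into libraries with a SMARTER mRNA-Seq kit. The members and gene lists were chosen with earlier results of these data known.

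The main test was edgeR 4.0.16 (R 4.3.3), quasi-likelihood, with TMM factors, on all genes that passed filterByExpr. P-values were adjusted by Benjamini-Hochberg and called below 0.05. SEs and 95% intervals were derived from the F statistic and are approximate. Tested on simulated counts of this comparison (14402 genes), edgeR called 17.1% of genes changed by 1 log2 unit and 80.7% of those changed by 2, with 4 false calls. DESeq2 (14553 genes) called 48.8% and 89.7%, with 46 false calls. DESeq2 thus made more false calls than edgeR at the same threshold in this simulation. It was a single run that used edgeR's own dispersion estimates, which may favour edgeR, and held no shift shared by many genes of a library. It therefore cannot rank the tools on these libraries, and genes called by DESeq2 and not by edgeR are read with caution. Alternatives were median-ratio and upper-quartile factors, DESeq2 1.42.0, limma-voom (limma 3.58.1), no filter, at least 1 CPM in 3 libraries, limma on log2(TPM + 1), the replicate number as a block, and leaving out each library. Library values used log2(CPM + 0.5). No 2 libraries of the same genotype agreed within sampling noise (chi-square per degree of freedom at least 43.0). In each role group the most abundant gene by mean CPM and the 2 with the smallest p were named with all values, and in each pathway list the 3 with the smallest p, with 4 genes always named, which are Ifnb1, Ifnar1, Ifnar2 and 1 that is not reported here. Other genes given with values were chosen after seeing them.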

Additional observations from a re-analysis of the deposited data

How the results depend on the processing

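No listed gene was called lower in any of the 14 alternative fits, and only DESeq2 called 1 higher (Ifit1). The median log2 fold change of the 32 genes ran from 0.33 (without KO 1 or WT 3) to 0.74 (without WT 2), and 12 fits kept all 32 above 0. The log2 fold change turned below 0 for Irf9 (-0.073 without KO 1 and -0.043 without WT 3; up to 0.20 without 1 other library), Dtx3l (-0.015 without KO 1; up to 0.27) and Parp14 (-0.044 without WT 3; up to 0.28). Genes with no overlap between the genotypes numbered 7 on log2(TPM + 1) values (background 6.79%), where the cause was not tested. They numbered 11 to 18 with 1 library left out, where fewer values must separate. The background was 16.5% for the 18 without KO 2 and 13.5% for the 17 without WT 2. It was not taken for the other fits without 1 library, so their counts cannot be read against all genes. With the replicate number as a block no listed gene was called (median 0.62, smallest adjusted p 0.205 for Ifit1), and deviations of same-numbered libraries correlated at -0.45, -0.17 and -0.47, so the numbers were not taken as pairs. The listed genes averaged at least 10.9 CPM, and in simulation edgeR called 17.1% of genes changed by 1 log2 unit, so the lack of calls does not show that the levels were alike.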
